A study of Mus musculus with 6 samples.

Results

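The glucocorticoid receptor gene Nr3c1 and 8 genes that the receptor is known to control were followed in the tibialis anterior (TA) muscle of aged mice. The target genes are Fkbp5, Tsc22d3, Klf15, Klf9, Zbtb16, Sgk1, Cebpb and Cebpd. These 9 genes were taken by symbol from the TPM tables, which list 16800 genes, and were joined by gene identifier to the count table, which lists 45777 genes. All 9 were found, and all 9 passed the filter on low counts. The list was drawn up with earlier results of these data known. RNA was sequenced from male C57BL/6J mice whose age is 24 months in the labels. The 3 vehicle mice were injected with the solvent alone (DMSO with a Tween detergent), and the 3 BML-260 mice received BML-260, a small molecule inhibitor of the phosphatase DUSP22, at 5 mg/kg by daily intraperitoneal injection for 1 month. Each library came from 1 mouse, and the hour at which muscle was taken is not given in the sources used here.

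The glucocorticoid receptor is a transcription factor that is held in the cytosol by Hsp90 and its partner proteins until it binds corticosterone, the main glucocorticoid of the mouse. It then enters the nucleus and binds response elements made of a pair of inverted AGAACA half-sites. In skeletal muscle, prolonged exposure to glucocorticoids is a known cause of atrophy: the receptor raises Klf15 and Foxo1, and with them the ubiquitin ligase genes Trim63 (MuRF-1) and Fbxo32 (atrogin-1). Such ligase genes are often called atrogenes. The comparison asks whether the receptor and its targets changed with BML-260, and whether they ordered the 6 libraries in the way the atrogenes did.

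Of the 9 members, 0 were called different between vehicle and BML-260, against 5.75% of the 16188 tested genes. Called here means changed by 1.3-fold or more at an unadjusted p below 0.05 in edgeR, with both thresholds as drawn on the study's volcano plot. With so few members, a count of 0 does not set them apart from all tested genes. In normalized counts, vehicle replicate 3 was the highest library for 7 of the 8 targets and the lowest for Sgk1. In vehicle replicate 3, Fkbp5 was 3.70-fold, Cebpd 3.15-fold and Klf15 2.16-fold the median of the other 5 libraries, whereas Nr3c1 itself was 1.11-fold and Sgk1 0.665-fold. These ratios come from normalized counts, in which DESeq2 size factors scale the read counts. The count totals were between 39522890 and 56998875. Vehicle replicate 3 stood apart across the transcriptome: it was the highest of the 6 libraries for 31.8% of the 16188 tested genes and the lowest for 31.7%, and every other library was the highest for between 9.53% and 16.5%. Fold changes of the members are therefore given with and without it.

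**Figure D1:**
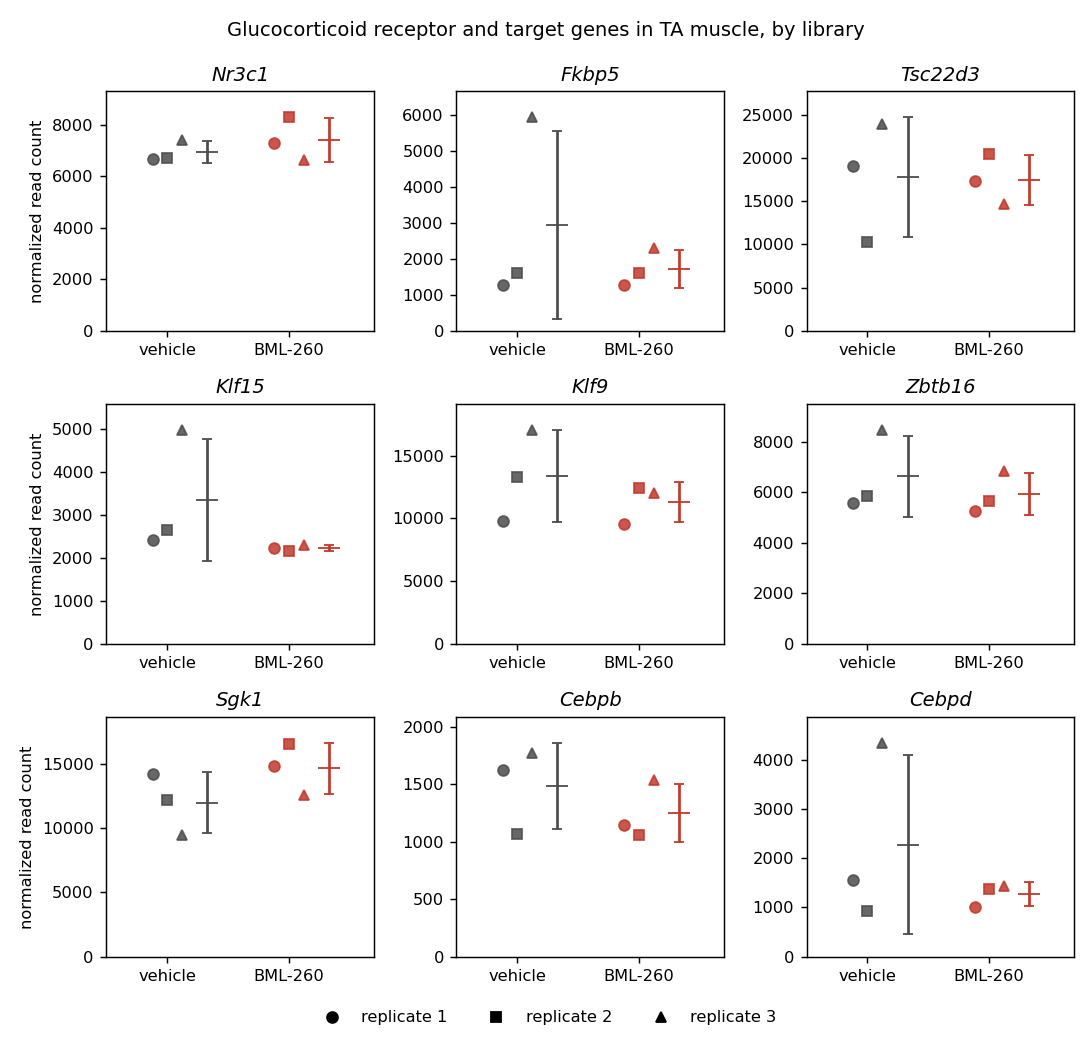
Normalized read counts (y axes, starting at 0) of the 9 genes in each library, with vehicle in grey and BML-260 in red, symbols for replicate numbers, and a dash with bars for the mean and SD of 3 libraries. Vehicle replicate 3 (grey triangle) is the highest point for 7 genes, the lowest for Sgk1, and inside the range of the other libraries for Nr3c1.

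The receptor gene varied little. Nr3c1 had normalized counts of 6650, 6695 and 7412 in vehicle replicates 1, 2 and 3, and of 7268, 8290 and 6611 in BML-260 replicates 1, 2 and 3. The groups overlapped, and no library lay far from the rest. The log2 fold change of BML-260 over vehicle was 0.09 (standard error 0.15), with an adjusted p of 0.875 by edgeR's quasi-likelihood test and the Benjamini-Hochberg method over all tested genes. Without vehicle replicate 3 it was 0.14 (standard error 0.14). On the TPM scale, which is scaled for length and library total, vehicle muscle had 42.6 ± 11.5 of Nr3c1 (SD, n = 3), and BML-260 muscle had 40.4 ± 5.13 (SD, n = 3). In TPM its highest library was vehicle replicate 3, at 55.9 TPM against 35.3 to 46.3 TPM in the other 5. That scale lifted the whole library: the median tested gene had 1.43 times its median TPM of the other libraries there. Relative to that gene, Nr3c1 was 1.05-fold.

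Fkbp5 encodes a co-chaperone that lowers the receptor's affinity for hormone, and it is among the most widely used readouts of receptor activity. The gene lies at chr17:28398753-28486149 in GRCm38.p6, and coordinates of the other genes are from the same build. Its normalized counts in vehicle replicates 1, 2 and 3 were 1276, 1604 and 5941. They were 1263, 1618 and 2307 with BML-260. The level in vehicle replicate 3 was 2.58-fold the next highest library, which was BML-260 replicate 3. The other vehicle libraries lay inside the range of the BML-260 libraries. BML-260 differed from vehicle by a log2 fold change of -0.77 (standard error 0.54, edgeR adjusted p = 0.788), and without vehicle replicate 3 it was 0.26 (standard error 0.22, edgeR adjusted p = 0.9999). The sign of the difference thus turned when 1 mouse was left out.

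Tsc22d3 encodes GILZ, a leucine zipper protein induced by glucocorticoids with anti-inflammatory effects (chrX:140539528-140600522). Vehicle replicates 1, 2 and 3 had 19112, 10251 and 23986 normalized counts, and BML-260 replicates 1, 2 and 3 had 17331, 20424 and 14646. Both the highest and the lowest library were vehicle libraries, and the BML-260 libraries lay between them. The log2 fold change was -0.03 (standard error 0.30, edgeR adjusted p = 0.983), and 0.24 (standard error 0.24) without vehicle replicate 3. Unlike that of Fkbp5, its level in vehicle replicate 3 was only 1.17-fold the next library.

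Klf15 and Klf9 encode zinc finger factors that the receptor induces directly. Klf15 (chr6:90461043-90491803) drives amino acid breakdown in muscle. It had 2428, 2644 and 4989 normalized counts in vehicle replicates 1, 2 and 3, and 2243, 2166 and 2308 in BML-260 replicates 1, 2 and 3. In normalized counts it was the only member whose groups did not overlap, against 12.2% of all tested genes without overlap, and the BML-260 libraries had a coefficient of variation of 3.16%. In TPM the groups did overlap, at 26.2, 26.9 and 76.9 TPM with vehicle and 24.3, 29.0 and 30.0 TPM with BML-260. Between the groups the log2 fold change was -0.58 (standard error 0.26), with an unadjusted p of 0.0548 and an adjusted p of 0.788 in edgeR. Without vehicle replicate 3 it was -0.18 (standard error 0.13), so the difference was smaller without that library.

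Klf9 (chr19:23141226-23168129) has been linked to the anti-proliferative effects of glucocorticoids, and it also follows the circadian clock. It had 9758, 13287 and 17072 normalized counts in vehicle replicates 1, 2 and 3, and 9525, 12426 and 12027 in BML-260 replicates 1, 2 and 3. Again vehicle replicate 3 was the highest, but vehicle replicate 1 lay near the lowest. The log2 fold change was -0.24 (standard error 0.23, edgeR adjusted p = 0.804) with all libraries and -0.03 (standard error 0.18) without vehicle replicate 3.

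Zbtb16 encodes PLZF, a zinc finger repressor that is strongly induced by glucocorticoids in many cells (chr9:48651797-48836225). In vehicle replicates 1, 2 and 3 it had 5574, 5862 and 8477 normalized counts. In the BML-260 libraries it had 5256, 5675 and 6850. Vehicle replicate 3 was highest and BML-260 replicate 3 second, the same first and second libraries as for Fkbp5. The log2 fold change was -0.17 (standard error 0.20, edgeR adjusted p = 0.839), and 0.05 (standard error 0.15) without vehicle replicate 3.

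Sgk1 encodes a kinase related to Akt that promotes sodium transport and opposes FOXO factors (chr10:21882184-21999903). Vehicle replicates 1, 2 and 3 had 14230, 12219 and 9463 normalized counts, and BML-260 replicates 1, 2 and 3 had 14853, 16525 and 12571. Here the order was turned, with vehicle replicate 3 the lowest library. With BML-260 the log2 fold change was 0.29 (standard error 0.20, edgeR adjusted p = 0.788), and 0.14 (standard error 0.16) without that library. On TPM and on CPM by total count the lowest library was vehicle replicate 2, because both scales raised the median gene of vehicle replicate 3, by 1.43-fold in TPM and 1.25-fold in CPM. Relative to that median gene, Sgk1 in vehicle replicate 3 lay between 0.644-fold and 0.680-fold over the 5 scalings tried.

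Cebpb and Cebpd encode C/EBP transcription factors that glucocorticoids induce in muscle and that cytokines also induce. Cebpd (chr16:15887286-15889545) had 1561, 923 and 4346 normalized counts in vehicle replicates 1, 2 and 3, and 1000, 1380 and 1436 in the BML-260 libraries. Its level in vehicle replicate 3 was 2.78-fold the next library, which was vehicle replicate 1. For Cebpd the log2 fold change was -0.84 (standard error 0.49, edgeR adjusted p = 0.788), and 0.02 (standard error 0.22) without vehicle replicate 3. Cebpb (chr2:167688915-167690432) differed less. It had 1619, 1063 and 1773 normalized counts with vehicle and 1148, 1055 and 1533 with BML-260, and its log2 fold change was -0.26 (standard error 0.22, edgeR adjusted p = 0.801), or -0.11 (standard error 0.21) without vehicle replicate 3.

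The 5.75% of tested genes that were called were 786 lower and 145 higher with BML-260, and no member was among them. After adjustment 0 of the 16188 genes had an edgeR p under 0.05, beside 966 with an unadjusted p under 0.05. DESeq2's Wald test gave 95 genes (0.588%) an adjusted p under 0.05, and 0 of them were members. The median log2 fold change of the members was -0.24, with 7 lower and 2 higher, and that of all tested genes was -0.0039. Without vehicle replicate 3 the median of the members was 0.05, with 6 higher and 3 lower, and 0 were called against 3.98% of all genes.

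**Figure D2:**
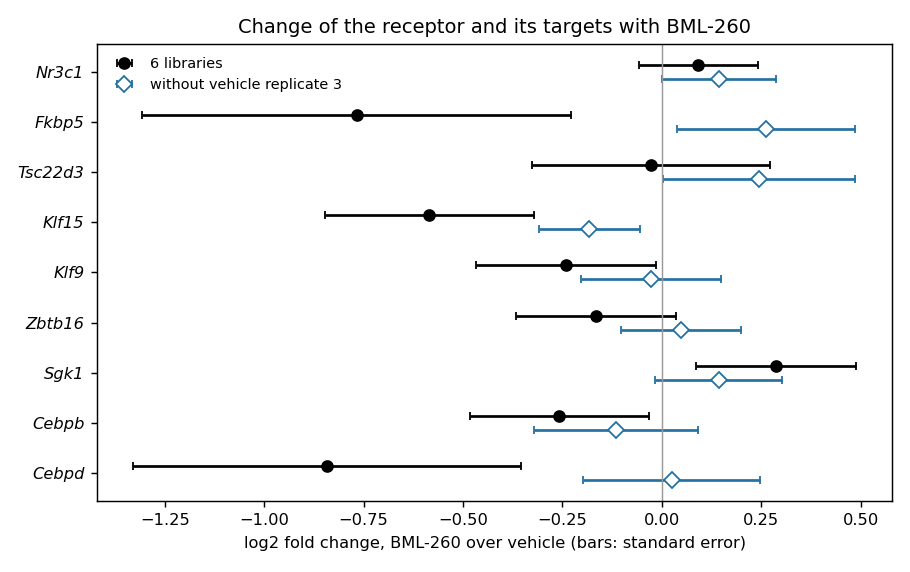
Log2 fold change of BML-260 over vehicle (x axis) for each gene from edgeR, with the standard error as bars, from all 6 libraries (filled circles) and without vehicle replicate 3 (open diamonds). Fkbp5 moves from -0.77 to 0.26 and Cebpd from -0.84 to 0.02, and Klf15 stays below 0.

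Levels between genes can be compared in TPM. By their median over the 6 libraries, Tsc22d3 (247 TPM) and Sgk1 (192 TPM) were the most abundant members, followed by Klf9 (98.1 TPM). Nr3c1 (37.5 TPM), Cebpb (30.8 TPM), Klf15 (27.9 TPM), Zbtb16 (26.5 TPM), Cebpd (22.6 TPM) and Fkbp5 (14.5 TPM) followed. Sgk1 was above Klf9, and Klf9 above Nr3c1, in 6 of 6 libraries. The other neighbours in this order overlapped over the libraries: Cebpb was above Klf15 in 3 of 6. In vehicle replicate 3 the order at the low end differed, with Cebpd at 94.5 TPM, Klf15 at 76.9 TPM and Fkbp5 at 75.2 TPM, all above Nr3c1 at 55.9 TPM.

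Vehicle replicate 3 was the highest library for 7 of the 9 members by size factors, by TMM and by the upper quartile, where the background was 31.8%, 31.3% and 34.3% of all tested genes. By total count and in TPM it was highest for 8 members, against a background of 52.4% and 63.3%. It was at least 2-fold above the median of the other libraries for 3 members (Fkbp5, Cebpd and Klf15), beside 9.55% of all tested genes. The median ratio over the members was 1.49, and over all tested genes 1.01.

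The response element letters were looked for in promoter windows of RefSeq (assembly GRCm38.p6, the same assembly as the mm10 build in the labels), each running from 250 bases before to 50 after a gene start. Windows were found for 6 members (13 windows, since some genes have several starts) and for Trim63. The full palindrome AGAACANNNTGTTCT was found in 3 of 32851 windows (0.00913%), and 1 of these belongs to Sgk1. The shorter core ACANNNTGT, which also lies inside the full palindrome, was in 6.85% of windows, the half-site TGTTCT on either strand in 19.0%, and the forkhead motif TGTTTAC on either strand in 3.65%. The windows shown are from Sgk1, which was not raised in vehicle replicate 3, and from genes that were higher there, and capitals mark any of the 4 motifs.
Sgk1, chr10:21993640-21993939, plus strand: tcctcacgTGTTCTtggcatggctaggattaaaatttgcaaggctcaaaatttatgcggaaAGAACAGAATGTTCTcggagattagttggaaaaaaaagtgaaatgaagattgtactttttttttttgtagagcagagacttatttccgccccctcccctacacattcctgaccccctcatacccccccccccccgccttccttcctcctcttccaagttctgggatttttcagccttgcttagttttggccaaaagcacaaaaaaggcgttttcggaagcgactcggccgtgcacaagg
Trim63, chr4:134314870-134315169, plus strand: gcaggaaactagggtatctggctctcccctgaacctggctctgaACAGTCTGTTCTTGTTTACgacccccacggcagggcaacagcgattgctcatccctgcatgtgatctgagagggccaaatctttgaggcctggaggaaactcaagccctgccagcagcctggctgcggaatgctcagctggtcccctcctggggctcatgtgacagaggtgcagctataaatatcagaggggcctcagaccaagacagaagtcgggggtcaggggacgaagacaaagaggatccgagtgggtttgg
Tsc22d3, chrX:140600473-140600772, minus strand: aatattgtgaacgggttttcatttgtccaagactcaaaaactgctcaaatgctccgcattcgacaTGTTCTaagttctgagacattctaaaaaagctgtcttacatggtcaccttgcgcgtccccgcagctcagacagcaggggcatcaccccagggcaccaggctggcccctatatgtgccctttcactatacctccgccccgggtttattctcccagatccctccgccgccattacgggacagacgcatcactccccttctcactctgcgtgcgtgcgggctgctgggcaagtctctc
Fkbp5, chr17:28486100-28486399, minus strand: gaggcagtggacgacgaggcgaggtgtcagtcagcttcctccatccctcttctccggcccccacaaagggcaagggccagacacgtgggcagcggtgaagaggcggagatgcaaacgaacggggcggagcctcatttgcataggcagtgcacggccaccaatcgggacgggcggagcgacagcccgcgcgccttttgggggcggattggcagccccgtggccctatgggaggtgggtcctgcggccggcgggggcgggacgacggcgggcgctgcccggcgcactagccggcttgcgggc
In the Sgk1 window the palindrome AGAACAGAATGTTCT begins 189 bases before the start, with a further half-site at 242 bases. In the Trim63 window the core ACAGTCTGT begins 206 bases before the start and overlaps a half-site at 200 bases. That half-site is followed directly by the forkhead motif at 194 bases. The Tsc22d3 window has 1 half-site, at 185 bases, and the Fkbp5 window holds none of the 4 motifs. The member found to have the full palindrome was Sgk1, for which vehicle replicate 3 was the lowest library in normalized counts. Nr3c1, Zbtb16 and Cebpd had no window, and Sgk1 had more windows than any other member. With 1 such gene, a link between motif and level was not tested. A match is only a match of letters, and elements outside these windows were not searched.

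The atrogenes were compared with the members library by library. Trim63 had 12834, 9905 and 41462 normalized counts in vehicle replicates 1, 2 and 3, and between 9248 and 10087 in the BML-260 libraries. Fbxo32 had 25467, 19693 and 69172 in the vehicle libraries and between 17459 and 18757 with BML-260. Both were thus highest in the same mouse as Fkbp5, Cebpd and Klf15. The second highest library was vehicle replicate 1 for both atrogenes. In vehicle replicate 1, however, Fkbp5 was the second lowest of the 6 libraries and Cebpd was the second highest.

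As a single atrogene level, the mean log2 CPM of Trim63 and Fbxo32 was 10.2 in vehicle replicate 3 and between 8.12 and 8.61 in the other 5 libraries. With 1 library that far out, correlations over 6 libraries mostly describe it, and 3 libraries a group are too few for a value within a group. Of 9 relations computed, that of Klf15 was the closest (Pearson r = 0.970, exact permutation p = 0.0750, Spearman rho = 0.886, exact permutation p = 0.0333, 2-sided, n = 6). By the Benjamini-Hochberg method over the 9 relations these exact permutation p-values were 0.225 and 0.300. Without the 2 libraries farthest from the median atrogene level, r for Klf15 was 0.926 over 4 libraries, and without vehicle replicate 3 alone it was 0.426 over 5. Those 4 were the BML-260 libraries and vehicle replicate 2, and their atrogene levels spanned only 8.12 to 8.23. Vehicle replicate 2 was the highest of the 4 both for Klf15 and for the atrogene level.

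The relation of Cebpd to the atrogene level (r = 0.943, exact permutation p = 0.0528; rho = 0.657, exact permutation p = 0.175) and that of Fkbp5 (r = 0.867, exact permutation p = 0.239; rho = 0.486, exact permutation p = 0.356) rested on vehicle replicate 3. Without it, r was 0.485 for Cebpd and -0.426 for Fkbp5 over 5 libraries. Without the 2 farthest libraries, r was -0.442 for Cebpd and 0.203 for Fkbp5. In log2 CPM with TMM Sgk1 ran opposite, with r = -0.814 and rho = -0.771 (exact permutation p = 0.144 and 0.103), and r = -0.0471 without vehicle replicate 3. For Nr3c1, r was 0.0985 and rho -0.143 (exact permutation p = 0.736 and 0.803). Both of these depended on the scale: on log2(TPM + 1), which lifts most genes of vehicle replicate 3, r was -0.0967 for Sgk1 and 0.819 for Nr3c1, and it was between 0.796 and 0.969 for the other 7 members. After adjustment the smallest p for any member was 0.225 (Pearson, exact permutation test). Tsc22d3, Klf9, Zbtb16 and Cebpb had r between 0.585 and 0.821, with exact permutation p between 0.0528 and 0.206, and r between -0.393 and 0.631 without vehicle replicate 3.

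**Figure D3:**
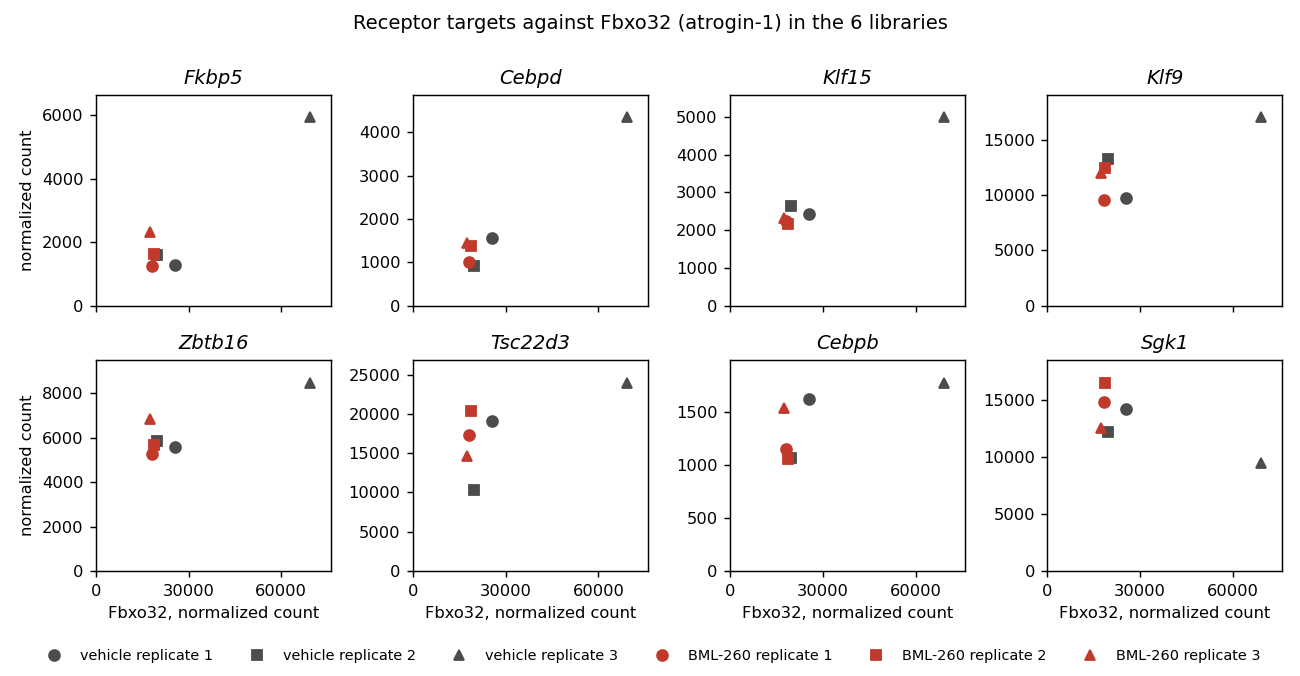
Normalized counts of each target gene (y axes) against those of Fbxo32 (x axis) in the 6 libraries, 1 point a library, grey for vehicle and red for BML-260. Vehicle replicate 3 stands alone on the right at 69172 Fbxo32 counts, high for 7 genes and low for Sgk1, and the other 5 libraries form a cluster between 17459 and 25467.

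Other genes known to be induced by glucocorticoids were read from a list of 30, all tested. With BML-260, 9 of them were called lower and 1 higher, against 4.86% and 0.896% of all tested genes, and the median log2 fold change was -0.34. The list includes both atrogenes. Mt2 and Mt1, the metallothioneins, had log2 fold changes of -4.20 (standard error 1.20) and -3.32 (standard error 1.08). Errfi1, a feedback inhibitor of the EGF receptor, had -0.75 (standard error 0.27), and Foxo1, the forkhead factor of the atrophy program, had -0.92 (standard error 0.34). The gene called higher was Mstn, which encodes the growth inhibitor myostatin, with 0.62 (standard error 0.21). Without vehicle replicate 3 these log2 fold changes were -1.34 for Mt2, -0.60 for Mt1, -0.39 for Errfi1, -0.44 for Foxo1 and 0.64 for Mstn. With all 6 libraries the adjusted p of these 5 genes lay between 0.699 and 0.788 in edgeR. For Mstn the direction differs from the paper's qPCR, which gave lower myostatin expression with BML-260 in geriatric mice. Txnip, an inhibitor of thioredoxin and the most abundant gene of the list in TPM, had a log2 fold change of 0.46 and was not called.

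Without vehicle replicate 3 the called genes of this list were 4 (Errfi1, Mt1, Mt2 and Mstn), and the median was -0.12. Vehicle replicate 3 was the highest library for 22 of the 30, and at least 2-fold above the median of the others for 14. Not all classical targets were high there. Pdk4 was 0.777-fold, Angptl4 0.844-fold and Bcl6 0.447-fold the median of the other libraries, while Per1 was 1.68-fold and Dusp1 1.51-fold. These 5 genes were picked after their values were seen.

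The partners of the receptor were read beside its targets. Of 15 listed genes for chaperones, co-regulators and enzymes that supply the hormone, 14 were tested. At the threshold of the volcano plot 0 were called, against 5.75% of all tested genes, and their median log2 fold change was 0.03. Vehicle replicate 3 was the highest library for 4 of the 14 by size factors and for 9 in TPM, beside 31.8% and 63.3% of all tested genes. Hspa8, the constitutive Hsc70 chaperone and the most abundant gene of the list, had a log2 fold change of -0.05. Hsd11b1, the enzyme that regenerates active corticosterone inside cells, had -0.34 (standard error 0.33) and 1.16-fold the median of the other libraries in vehicle replicate 3. It was picked after its values were seen. Hsd11b2, which inactivates the hormone, did not pass the filter.

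Paralogs of the members were tested in 17 of 20 cases, and 1 was called lower, against 4.86% of all tested genes. It was Cebpa (log2 fold change -0.84, standard error 0.28), which encodes the C/EBP factor of fat and myeloid cells. Cebpa was still called without vehicle replicate 3, at -0.63 (standard error 0.26). The median over the paralogs was -0.0034. Fkbp4, the co-chaperone that acts opposite to Fkbp5 and the most abundant paralog, had a log2 fold change of 0.28 and 0.730-fold the median of the others in vehicle replicate 3. In that library the highest level was found for 6 of the 17 paralogs by size factors and for 12 in TPM, beside 31.8% and 63.3% of all tested genes.

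The genes of amino acid breakdown linked to Klf15 were mostly low, by size factors, in the library where Klf15 was highest. Of 9 tested, 1 was called, against 5.75% of all tested genes. It was Gpt2, the mitochondrial alanine aminotransferase, which was higher with BML-260 (log2 fold change 0.65, standard error 0.26, and 0.46 without vehicle replicate 3). In vehicle replicate 3, where Klf15 was highest, the median ratio of the 9 genes was 0.692. That library was the lowest for 6 of the 9, against 31.7% of all tested genes. In TPM, which lists 8 of them, the median ratio was 1.01, below the 1.43 of the median tested gene. Got1, the cytosolic aspartate aminotransferase and the most abundant of them, had a log2 fold change of 0.14. Most of the 9 muscle fiber markers were also low in vehicle replicate 3, with a median ratio of 0.600 by size factors and 0.834 in TPM. By size factors that library was the lowest for 7 of these 9 markers. The exceptions were Myh1, at 0.976-fold, and Myh2, which was highest there at 2.32-fold.

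**Figure D4:**
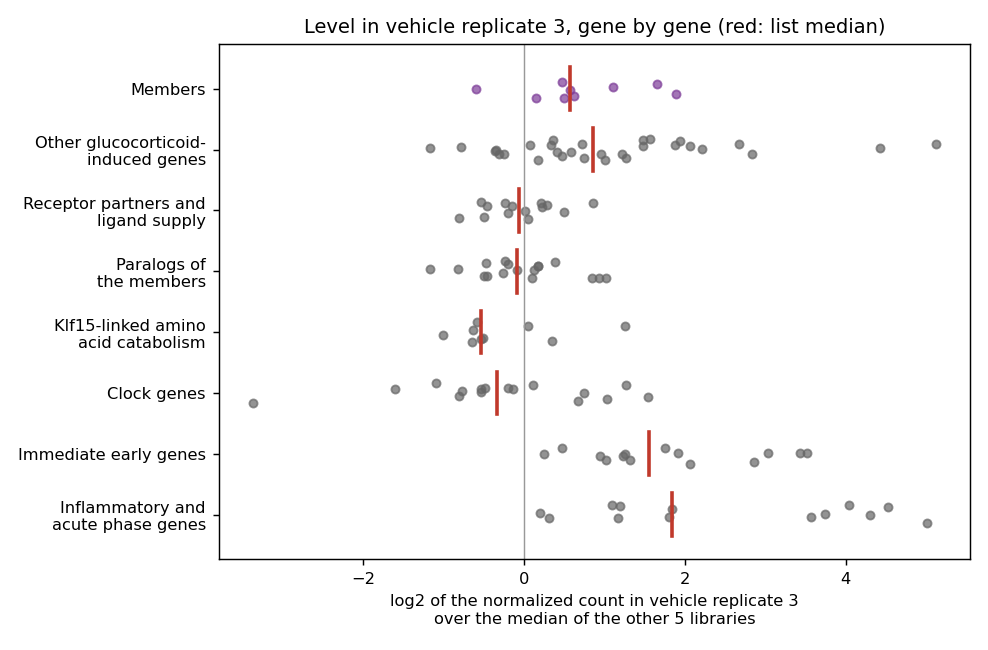
Log2 ratio of the normalized count in vehicle replicate 3 to the median of the other 5 libraries (x axis), 1 point a tested gene, by gene list (y axis), with list medians as red bars. The members have a median ratio of 1.49, the inflammatory genes 3.59, the immediate early genes 2.93, and the Klf15-linked genes 0.692.

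Cebpb and Cebpd also answer to cytokines, so an inflammatory and acute phase list was read beside them. Of 13 tested genes, 9 were called lower with BML-260 and 0 higher, the median log2 fold change was -1.17, and vehicle replicate 3 was highest for 13 of 13. Adjusted p-values of the genes named from the lists, called or not, were never under 0.585 in edgeR with all 6 libraries. The 5 with the smallest p were Orm1 (-5.69), Osmr (-0.87), Orm2 (-4.24), Lcn2 (-3.60) and Serpina3n (-3.12), given as log2 fold changes. Orm1 and Orm2 encode near-identical acute phase proteins, so reads could have been split between them. In BML-260 replicates 1, 2 and 3, Orm1 had 0, 0 and 6.14 normalized counts and Orm2 had 0, 5.98 and 0. The size of their fold changes, with or without vehicle replicate 3, rests on these counts near 0. Osmr is the oncostatin M receptor, Lcn2 an iron-trapping protein of neutrophils and epithelia, and Serpina3n a protease inhibitor. Il6st, the shared receptor chain of the IL-6 family and the most abundant of the list in TPM, had -0.07. Without vehicle replicate 3, 4 were called (Orm1, Orm2, Osmr and Socs3) and the median was -0.64. The log2 fold changes were then -4.55 for Orm1, -0.64 for Osmr, -3.17 for Orm2, -0.99 for Lcn2 and -0.69 for Serpina3n.

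Immediate early genes were also highest in vehicle replicate 3. Of 14 tested, 5 were called lower with BML-260 (Junb, Fosl2, Ier3, Fos and Fosb, with log2 fold changes between -2.19 and -0.81) and 0 higher, and 14 of 14 were highest in that library. All 5 are genes known to be switched on within minutes of a stimulus, and Fos, Fosb, Fosl2 and Junb are subunits of the AP-1 factor. Nr4a1, the most abundant in TPM, had a log2 fold change of -0.05. Without that library Fosl2 (-0.40) and Junb (-0.85) were still called, and Ier3 (-0.42), Fos (-0.37) and Fosb (-0.14) were not.

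Klf9, Klf15 and Per1 also cycle with the clock. Of 16 clock genes, 1 was called, against 5.75% of all tested genes. It was Tef (log2 fold change 0.38, standard error 0.17), a PAR bZIP factor that was higher with BML-260 and the most abundant of the list. Without vehicle replicate 3, 0 were called, against 3.98% of all genes, and Tef had 0.29 (standard error 0.15). By size factors, vehicle replicate 3 was the highest library for 5 of the 16 clock genes and the lowest for 7. Over all tested genes these shares were 31.8% and 31.7%. Dbp, a clock output gene, was 0.0967-fold the median of the others there, and Arntl, the activator of the clock, was 2.41-fold. These genes were picked after their values were seen. The part of clock phase in the levels of Klf9 and Klf15 was not tested.

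Markers of some other cells moved with vehicle replicate 3 too. Those of slow fibers, Schwann cells, neutrophils and macrophages had their highest summed level there both in TPM and in normalized counts. In bulk muscle a change in the number of cells of a type and a change in RNA per cell cannot be told apart. Muscle fiber markers were abundant in all libraries, as the tissue label says, with a summed level of 85693 TPM in vehicle replicate 3 and between 97325 and 121321 TPM in the others. In normalized counts their sum was 3378811 in vehicle replicate 3 and between 5249286 and 6370694 in the others. By these counts that library was the lowest for 7 of the 9 fiber markers and the highest for 1. The 5 slow fiber markers summed to 553 TPM in vehicle replicate 3, to 61.7 and 63.4 TPM in the other vehicle libraries, and to between 61.8 and 146 TPM with BML-260. Of the 553 TPM, Myl2 made up 423 TPM, whereas Myl3 made up 54.5 and 48.2 TPM of the sums in vehicle replicates 1 and 2. By normalized counts Myl3 was lowest in vehicle replicate 3, at 0.623-fold the median of the other libraries. Of the 5 slow fiber markers, 1 was called lower with BML-260, whereas 3 were called higher without vehicle replicate 3. The 4 Schwann markers summed to 29.2 TPM there and to between 5.12 and 10.3 TPM elsewhere, and 0 were called, or 1 (higher) without that library.

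Of 5 tested neutrophil markers 5 were called lower with BML-260, and all of them stayed called without vehicle replicate 3. Their summed level, over the markers listed in TPM, was 165, 23.8 and 801 TPM in vehicle replicates 1, 2 and 3 and between 6.70 and 12.1 TPM with BML-260. The defining marker Ly6g had 0 counts in every library but vehicle replicate 3. Vehicle replicate 1, with the second highest neutrophil level, had 1276 normalized counts of Fkbp5, below vehicle replicate 2. Its Cebpd and Cebpb counts, 1561 and 1619, were each the second highest of the libraries. These are values of 1 mouse, and the part of neutrophils in them was not tested. Of 8 macrophage markers 7 were called lower, and the sum was 459 TPM in vehicle replicate 3, 107 and 104 TPM in the other vehicle libraries, and between 68.9 and 85.9 TPM with BML-260. Of the 459 TPM, Lyz2 alone made up 354 TPM. By size factors 8 of the 8 markers were highest in vehicle replicate 3, with a median ratio of 4.16. Without that library 5 were called. The defining marker Adgre1 had 352, 351 and 378 normalized counts in vehicle replicates 1, 2 and 3, and between 116 and 200 with BML-260.

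Of 6 denervation markers 5 were called lower with BML-260, 5 also without vehicle replicate 3. Their sum was 73.6, 174 and 276 TPM in vehicle replicates 1, 2 and 3 and between 28.3 and 44.2 TPM with BML-260. In normalized counts the order of the highest libraries turned, with sums of 3841, 10238 and 9642 in the vehicle libraries and between 1756 and 2330 with BML-260. Vehicle replicate 2, with a denervation level this high, had 1604 normalized counts of Fkbp5 and the lowest Cebpd of all libraries, at 923. Its Klf15 and Klf9 counts, 2644 and 13287, were each the second highest of the libraries. These too are values of 1 mouse, and the part of denervation in them was not tested. For the adipocyte, fibroblast and endothelial markers the scale decided whether vehicle replicate 3 stood out. The adipocyte sum was 496 TPM there against 293 to 380 TPM, but 7285 normalized counts against 5673 to 7772. It was mostly Fabp4, at 0.949-fold the median of the other libraries in normalized counts, while Adipoq was 7.38-fold, Cidec 7.90-fold and Plin1 4.42-fold, and 0 of 4 tested adipocyte markers were called. The fibroblast sum (1 of 5 called, lower) was 779 TPM against 287 to 587 TPM, but 35780 normalized counts against 22040 to 39139. The endothelial sum (0 of 4 called) was 67.7 TPM against 45.7 to 58.1 TPM, and in normalized counts it was the lowest of the libraries, at 5326 against 5505 to 6560. Of 7 lymphocyte markers 0 passed the filter. The part of these cells in the levels of the members was not tested.

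The genes most like each member over the 6 libraries were looked up among 10689 tested genes with a curated name and a mean log2 CPM above 1. Those closest to Fkbp5 were Utrn (Pearson r = 0.9965), Cpne1 (0.9955) and Secisbp2l (0.994). Closest to Cebpd were Xpnpep1, Tmem140 and Klhl38 (0.996 to 0.995), and closest to Klf15 were Slc7a1, Trim72 and Snhg5 (0.998). Closest to Sgk1 were Mrpl46, Atg12 and Tmem182 (0.997 to 0.996). Nr3c1 was closest to Alg11 (0.988), Tsc22d3 to Ddx59 (0.995), Klf9 to Prdm2 (0.998), Zbtb16 to Mocos (0.995) and Cebpb to Gpr108 (0.978). With 6 libraries and so many genes, values this high are found for every member, and they only describe which genes shared the pattern of the libraries.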

How the data were processed

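RNA-Seq of the TA muscle was done by the authors on 3 vehicle and 3 BML-260 mice. Per the labels and the study's methods, reads were trimmed with Trimmomatic 0.38, mapped with HISAT2 2.1.0 and Bowtie2 2.3.4.1 (mm10) and assembled with StringTie 2.1.3b. The authors deposited raw counts per gene for the 6 libraries (39522890 to 56998875 counts each) and TPM per library. The counting rules for strand and multi-mapped reads are not given in the sources used here. The kit marks strand.

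Counts were tested in R 4.3.3 with edgeR 4.0.16 (filterByExpr, TMM, quasi-likelihood F-test, Benjamini-Hochberg over 16188 genes, 99.9% of counts). Standard errors were derived from the fold change and the F statistic. Normalized counts used the size factors of DESeq2 1.42.0. Log2 CPM used a prior count of 2. Exact permutation tests used scipy 1.17.1, and figures matplotlib 3.10.9. The tests were tested on simulated data. Alternatives were a block for replicate number, removal of single libraries, other scalings (RLE, upper quartile), other filters (a minimum of 10 counts per library, or any gene with 1 count), DESeq2, and limma 3.58.1 (voom with sample weights, and log2 TPM with a pseudocount of 1 or 0.1). Other scalings of vehicle replicate 3, marker sums in normalized counts, and lists and their genes without it, were added after seeing the data.

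The members and lists were chosen with earlier results of these data known. Genes named are the members, Trim63 and Fbxo32, up to 5 called genes per list by p, the most abundant of each list, and the 3 genes most correlated with each member. Markers are named from their lists, and all other genes were named after their values were seen.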

Additional observations from a re-analysis of the deposited data

How the results depend on the processing

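Over 15 alternatives for each of the 9 members (135 log2 fold changes), 120 kept their direction and their side of the threshold, 5 became called and 10 turned sign. Those called were Klf15 with no filter, with DESeq2, without vehicle replicate 1 and without vehicle replicate 2, and Cebpd without vehicle replicate 2. The adjusted p of the members was never under 0.301. Leaving out 1 library in turn, log2 fold changes spanned -1.12 to 0.26 for Fkbp5, -1.22 to 0.0248 for Cebpd, -0.28 to 0.0486 for Zbtb16 and -0.31 to 0.24 for Tsc22d3, each with its highest value without vehicle replicate 3. Tsc22d3 was also 0.0315 without vehicle replicate 1, 0.0840 without BML-260 replicate 3 and 0.34 with sample weights, and Nr3c1 was -0.0499 and -0.0505 with log2 TPM at pseudocounts of 1 and 0.1, where the median of all genes shifted to -0.09 and -0.14. The members called were 1 with no filter and 1 with DESeq2, and between 0 and 2 when a library was left out. All genes called were 1416 of 25780 with no filter, 1021 of 16188 with DESeq2 and 446 of 16800 on log2(TPM + 1). With a library left out they were between 503 of 16767 (without BML-260 replicate 2) and 2223 of 16719 (without vehicle replicate 1). Without vehicle replicate 2, where 2 members were called, they were 1207 of 16719. Genes with an adjusted p under 0.05 were 1 with no filter, 1 with at least 10 counts in every library, 1 with sample weights, 95 with DESeq2, and between 0 and 9 with a library left out (9 without vehicle replicate 1, 6 without vehicle replicate 3). The correlation with the atrogene level turned sign without the 2 farthest libraries for Nr3c1 (-0.486), Tsc22d3 (-0.892), Cebpb (-0.229) and Cebpd (-0.442). On log2(TPM + 1) with all 6 libraries it was 0.819 for Nr3c1 and -0.0967 for Sgk1. The causes were not tested.

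Same-numbered libraries deviated from their group means with r of 0.162, 0.0541 and 0.1096 between them. With 3 libraries a group, these values cannot decide whether replicate numbers paired the libraries. With the replicate block Tsc22d3 had a log2 fold change of 0.0385, Fkbp5 -0.46, Klf15 -0.51 and Cebpd -0.57, and 0 members were called. Each member had at least 923 normalized counts in every library. What limited the precision was not tested.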
